A study of Drosophila melanogaster with 3 samples.

Results

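The nuclear genes for mitochondrial ribosomal proteins were examined for binding of E(z)-GFP in whole fly prepupae. They were taken as the protein-coding genes of Drosophila melanogaster whose symbols begin with mRpL (large subunit) or mRpS (small subunit) in the Ensembl annotation, and they number 73 of 13945 protein-coding genes on the 6 chromosome arms. Of these, 47 encode proteins of the large subunit and 26 proteins of the small subunit. All 73 had the same coordinates in Ensembl and in RefSeq.

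E(z) is the histone H3 lysine 27 methyltransferase of Polycomb repressive complex 2, which is known for keeping developmental genes silent in cells where they are not used. The mitochondrial ribosome is a separate ribosome inside mitochondria that makes the few respiratory chain proteins encoded by mitochondrial DNA, and its proteins are encoded in the nucleus, made in the cytosol and imported. Genes of this kind are used in nearly all cells, and in flies they often stand back to back with another gene so that both are transcribed outward from a short shared interval, called a divergent promoter.

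The data are peaks from chromatin immunoprecipitation and sequencing of whole organisms at the prepupa stage, with males and females pooled and the age given as unknown. The flies were a transgenic line that stably expresses E(z) with GFP at its C-terminal end, and the chromatin was sheared by sonication. Per the labels' description the fusion protein was precipitated with an anti-GFP antibody, while the labels' antibody field reads E(z). There were 3 biological replicates of this 1 group, with no other genotype, stage or treatment. The labels name neither the promoter of the transgene nor the state of the fly's own E(z) gene. Because the animals were taken whole, a peak can come from any of their tissues. A possible control experiment that the labels name was not analysed here. The authors deposited 30000 relaxed peaks per replicate and as many for the pooled replicates, all on dm6, and 5623 peaks past their reproducibility threshold, called the optimal list. Since the optimal peaks were selected on these replicates, finding them there describes that selection and is no separate evidence. How deeply the libraries were sequenced is unknown, and peaks were only ranked by the authors' signal value, list by list, with rank 1 the highest. Transcription was not measured.

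An optimal E(z)-GFP summit lay at most 1 kb from a transcription start site (TSS) in 16 of the 73 genes. That is 21.9% of the mitochondrial ribosomal protein genes, against 2252 of 13945 protein-coding genes, or 16.1%. The large subunit had 10 such genes of 47 (21.3%) and the small subunit 6 of 26 (23.1%). When each replicate list was cut to its 5623 highest-ranked peaks, a summit lay within 1 kb of 18 of the genes in replicate 1 (24.7%, against 16.6% of all genes), of 16 in replicate 2 (21.9%, against 16.9%) and of 16 in replicate 3 (21.9%, against 19.7%). The mean was 22.8% ± 1.62 for the mitochondrial ribosomal protein genes and 17.7% ± 1.71 for all genes (SD, n = 3 replicates). Their share was higher in each of the 3 replicates, by least in replicate 3, and no test was run on this difference. The direction turned in the optimal list when each summit was given only to the gene of its nearest TSS, with 3 of the mitochondrial ribosomal protein genes (4.11%) against 12.9% of all genes, and for summits within 5 kb, with 28.8% against 32.0%. In the full relaxed lists the order of the means was the other way round, with 37.0% ± 4.73 of the mitochondrial ribosomal protein genes and 39.7% ± 3.46 of all genes (SD, n = 3), a difference within the spread of the replicates. Their share was lower in replicates 2 (31.5%, against 38.2%) and 3 (39.7%, against 43.7%) and higher in replicate 1 (39.7%, against 37.3%).

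**Figure D1:**
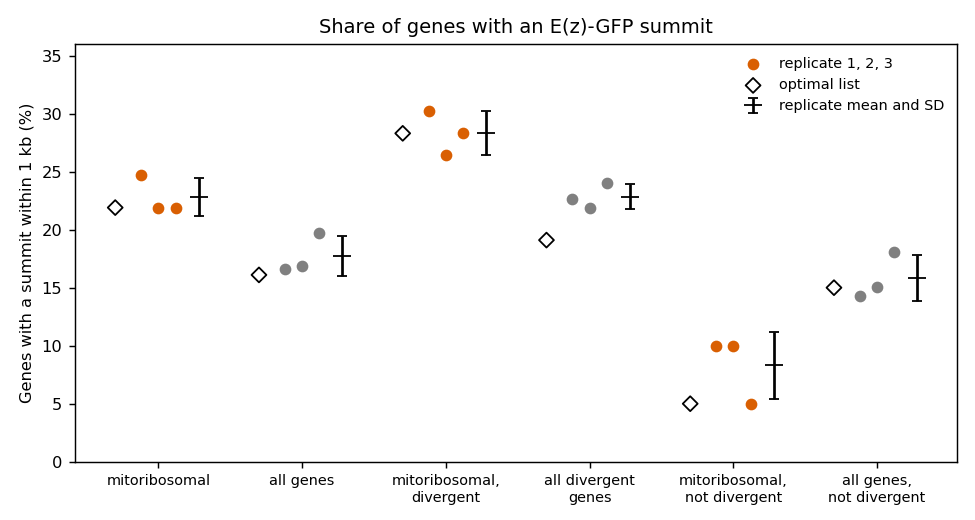
Share of genes, in percent, with an E(z)-GFP summit within 1 kb of a TSS, for mitochondrial ribosomal protein genes (orange points) and all protein-coding genes (grey points), together and split by whether the gene has a divergent partner. Diamonds give the optimal list, points the replicates 1, 2 and 3 from left to right at the length of the optimal list, and bars the replicate mean and SD; the divergent mitochondrial ribosomal protein genes stood at 28.3% in the optimal list, above 5.0% for those without a partner.

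In the optimal list the genes split by promoter layout when partners were counted up to 500 bp away, though not with a limit of 250 bp. A divergent partner, meaning a TSS of another protein-coding gene on the opposite strand at most 500 bp upstream, was annotated for 53 of the 73 genes (72.6%) and for 3815 of 13945 genes (27.4%). An optimal summit lay within 1 kb of 15 of the 53 divergent genes (28.3%), against 19.1% of all divergent genes. Among the 20 mitochondrial ribosomal protein genes without a divergent partner, mRpL41 alone had one (5.0%), against 15% of all genes without a partner. The replicates gave 28.3% ± 1.9 for the divergent mitochondrial ribosomal protein genes and 22.8% ± 1.07 for all divergent genes, and 8.33% ± 2.89 for those without a partner and 15.8% ± 2.0 for all such genes (SD, n = 3). With only 20 genes without a partner, 1 gene moves that share by 5.0 percentage points. The partner gap had a median of 264 bp over the 53 genes and 244 bp over all divergent genes. It was 384 bp for the 15 with a summit and 232 bp for the 38 without one, against 256 bp and 241 bp for all divergent genes with and without one. By gap, a summit was found for 4 of 18 genes with a gap under 100 bp (22.2%, against 16.8% of all divergent genes with that gap), 1 of 7 with a gap from 100 bp to under 250 bp (14.3%, against 17.9%) and 10 of 28 with a gap from 250 to 500 bp (35.7%, against 20.9%).

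The 16 summits were 16 distinct peaks, and each had the TSS of at least 1 other protein-coding gene within 1 kb, as did 950 of all 2252 genes with a summit (42.2%). For 12 of the 16 the nearest TSS was that of the divergent partner, for 3 it was that of the mitochondrial ribosomal protein gene (mRpL41, mRpL23 and mRpS6), and for mRpL55 it was that of cdi. Among the 15 divergent genes the own TSS was nearest for 2 (13.3%), whereas among all divergent genes with a summit it was nearest for 395 of 729 (54.2%), a share in which a pair with both genes near the summit counts once for each gene. The partner's TSS was the nearest for 12 genes in each replicate, out of 16 divergent genes in replicate 1, 14 in replicate 2 and 15 in replicate 3. The share with the own TSS nearest was 17.5% ± 6.49 for the mitochondrial ribosomal protein genes and 53.2% ± 0.462 for all divergent genes (SD, n = 3). Where the partner was nearest, the summit stood 44 to 166 bp from the partner's TSS (median 115 bp) and a median of 275.5 bp from that of the mitochondrial ribosomal protein gene. Peaks of this width do not tell which gene of a pair the binding concerns.

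The sequences between the start sites of 4 pairs with an optimal summit are shown first, because 3 of them carry peaks of high rank and the fourth one of middle rank. They were read from RefSeq's genome release 6, which is the dm6 build, along the strand of the mitochondrial ribosomal protein gene, so that each run begins next to the partner's TSS. The runs of mRpS10, mRpL24 and mRpL32 end next to their own TSS, and that of mRpS23 stops short of it. Capitals mark the E-box CAGCTG and the DNA replication-related element TATCGATA. The mRpS23 run is the 300 bases of the interval next to CenG1A, chr2L:13835264-13835563 on the minus strand, with the optimal summit at base 115. The mRpS10 run is the whole interval to Art3, chr3R:15229409-15229664 on the plus strand, also with the summit at base 115. The mRpL24 run is the interval to betaggt-I, chr2L:4945362-4945578 on the minus strand, with the summit at base 84, and the mRpL32 run is the interval to qless, chr3R:31252609-31252871 on the plus strand, with the summit at base 97.
mRpS23: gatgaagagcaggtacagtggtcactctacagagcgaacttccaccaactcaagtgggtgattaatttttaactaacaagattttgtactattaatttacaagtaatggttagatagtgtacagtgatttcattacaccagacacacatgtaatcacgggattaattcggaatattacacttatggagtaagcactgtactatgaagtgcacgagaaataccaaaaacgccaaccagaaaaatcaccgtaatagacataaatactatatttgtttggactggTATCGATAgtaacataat
mRpS10: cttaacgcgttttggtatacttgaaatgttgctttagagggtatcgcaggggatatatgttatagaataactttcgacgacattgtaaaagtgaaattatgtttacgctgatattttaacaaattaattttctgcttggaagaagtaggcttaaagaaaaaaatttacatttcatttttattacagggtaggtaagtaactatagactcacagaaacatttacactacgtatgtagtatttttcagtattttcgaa
mRpL24: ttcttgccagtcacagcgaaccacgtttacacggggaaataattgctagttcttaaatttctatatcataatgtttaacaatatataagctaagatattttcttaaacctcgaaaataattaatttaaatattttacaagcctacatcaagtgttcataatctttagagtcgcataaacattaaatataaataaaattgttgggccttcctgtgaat
mRpL32: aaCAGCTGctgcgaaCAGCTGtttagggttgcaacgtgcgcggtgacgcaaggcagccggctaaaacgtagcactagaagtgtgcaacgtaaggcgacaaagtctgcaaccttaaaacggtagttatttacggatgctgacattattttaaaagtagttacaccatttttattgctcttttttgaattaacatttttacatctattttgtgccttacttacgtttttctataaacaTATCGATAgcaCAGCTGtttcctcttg

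None of these 4 runs overlapped an annotated protein-coding gene, and their GC content was 35.3% for mRpS23, 30.1% for mRpS10, 28.6% for mRpL24 and 39.9% for mRpL32. The runs of mRpS10 and mRpL24 hold no capitals, so the summits of the third and the fifth best-ranked genes lie in intervals without either motif. For mRpL24, CAGCTG begins 20 bp downstream of the start, past the end of the run and within 250 bp of the summit. In the mRpL32 interval the 3 matches of CAGCTG stand at bases 3 to 8, 16 to 21 and 248 to 253, so that they flank both start sites, and TATCGATA stands at bases 237 to 244, while the summit falls between them. In the mRpS23 run TATCGATA stands at bases 283 to 290, to the side of the summit that faces mRpS23 and still 206 bp from the TSS of mRpS23.

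For contrast, the next interval belongs to a pair of like layout that had no summit within 1 kb in any of the 5 lists. mRpS2, the counterpart of bacterial ribosomal protein S2, is paired with Mon1, which encodes a factor of endosome maturation, over 222 bp (chr2L:4850420-4850640, minus strand). Capitals again mark CAGCTG and TATCGATA.
mRpS2: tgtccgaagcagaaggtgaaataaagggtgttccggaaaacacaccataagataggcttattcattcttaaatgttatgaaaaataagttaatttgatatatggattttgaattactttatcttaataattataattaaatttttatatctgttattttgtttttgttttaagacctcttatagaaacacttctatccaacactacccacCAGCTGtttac

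The GC content of the mRpS2 interval was 28.1%, close to that of mRpL24. CAGCTG stands at bases 211 to 216 of the run, next to the TSS of mRpS2, and TATCGATA is not in it. CAGCTG thus occurred both in an interval with a summit, that of mRpL32, and in one without.

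The strongest binding among the small subunit genes was at mRpS23. Its optimal peak, at chr2L:13835287-13835638, ranked 6 of 5623, and its ranks were 6, 6 and 8 in replicates 1, 2 and 3 (mean 6.67 ± 1.15 SD, n = 3). The summit lay 377 bp upstream of the mRpS23 TSS, with replicate summits 383, 379 and 379 bp upstream, so the 3 replicates placed it within 4 bp of each other. The gene (chr2L:13834250-13835072, minus strand) encodes a small subunit protein of the mitochondrial ribosome, and its partner CenG1A, a GTPase-activating protein of the Arf family, starts 492 bp away and 115 bp from the summit.

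mRpS10, the counterpart of bacterial ribosomal protein S10, had the second best rank of the small subunit. Its optimal peak, chr3R:15229365-15229714, ranked 19, and ranked 12, 27 and 36 in the replicates (mean 25.0 ± 12.1 SD, n = 3). The summit lay 142 bp upstream, with replicate summits at 135, 141 and 129 bp upstream. It stood 115 bp from the TSS of Art3, which encodes a protein arginine methyltransferase, across a gap of 257 bp.

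Among the large subunit genes mRpL41, a protein found in animal mitochondrial ribosomes, ranked best. Its peak at chr2R:15217581-15217931 ranked 16, and ranked 8, 19 and 37 in the replicates (mean 21.3 ± 14.6 SD, n = 3). The summit lay 142 bp upstream of the mRpL41 TSS, with 147, 124 and 146 bp in the replicates, and this was the 1 gene with a summit and no divergent partner, the nearest other gene within 1 kb being CG8079. mRpL23 followed, the counterpart of a bacterial protein at the exit of the ribosome's peptide tunnel. Its peak at chr3L:2373441-2373768 ranked 68, and ranked 50, 75 and 161 in the replicates (mean 95.3 ± 58.2 SD, n = 3). Its summit lay 84 bp downstream of the TSS, inside the gene, with 64, 88 and 80 bp in the replicates, and its partner CG9004 starts 24 bp away.

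These 4 genes were among the 90 genes, 0.645% of all protein-coding genes, that had 1 of the 100 highest optimal summits within 1 kb. Of those 100 summits, 63 lay within 1 kb of any protein-coding TSS. In every replicate the 4 genes also kept ranks of 161 or better. Among the 1000 highest summits the count was 6 of 73 (8.22%), against 4.63% of all genes.

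mRpL24 and mRpL20 complete those 6. mRpL24, whose bacterial counterpart acts early in ribosome assembly, had a peak at chr2L:4945401-4945607 that ranked 443, and 341, 388 and 1372 in the replicates (mean 700.3 ± 582.2 SD, n = 3). Its summit lay 134 bp upstream, with 108, 149 and 132 bp in the replicates, and 84 bp from the TSS of betaggt-I, which encodes a subunit of a geranylgeranyl transferase. mRpL20, whose bacterial counterpart also acts early in assembly, had a peak at chr3L:13018016-13018228 that ranked 576, and 424, 649 and 1304 in the replicates (mean 792.3 ± 457.2 SD, n = 3). Its summit lay 240 bp upstream, with 255, 224 and 240 bp in the replicates, and 159 bp from Icmt, which encodes the methyltransferase that finishes prenylated proteins. For both genes replicate 3 gave a worse rank than the other replicates, and the summits moved by at most 41 bp.

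The next genes held ranks past 1000. mRpL18, whose bacterial counterpart binds 5S ribosomal RNA, had a peak at chr2R:12756105-12756528 that ranked 1524, and 2154, 1125 and 1713 in the replicates (mean 1664.0 ± 516.2 SD, n = 3). Its summit lay 117 bp upstream, with 116, 170 and 140 bp in the replicates, inside the partner Taz, which encodes the cardiolipin-remodelling enzyme tafazzin. mRpL32, whose counterpart in yeast and mouse is matured by a mitochondrial protease, had a peak at chr3R:31252493-31252916 that ranked 2541, and 3000, 2486 and 4911 in the replicates (mean 3465.7 ± 1277.8 SD, n = 3). Its summit lay 167 bp upstream, with 127, 150 and 140 bp in the replicates, towards qless, which acts in coenzyme Q synthesis.

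mRpL2, whose bacterial counterpart lies near the peptidyl transferase centre, had a peak at chr3L:11120325-11120748 that ranked 3250, and 4197, 5934 and 1934 in the replicates (mean 4021.7 ± 2005.8 SD, n = 3). The summit lay 310 bp upstream, inside the partner FoxK, a forkhead transcription factor, and at 310, 120 and 326 bp in the replicates, so replicate 2 placed its best peak elsewhere. mRpL34, the counterpart of bacterial L34, had a peak at chr2R:16098449-16098872 that ranked 3347, and 3291, 2846 and 2155 in the replicates (mean 2764.0 ± 572.4 SD, n = 3). Its summit lay 287 bp upstream, with 288, 215 and 415 bp in the replicates, and 97 bp from Dg, which encodes the extracellular matrix receptor dystroglycan.

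**Figure D2:**
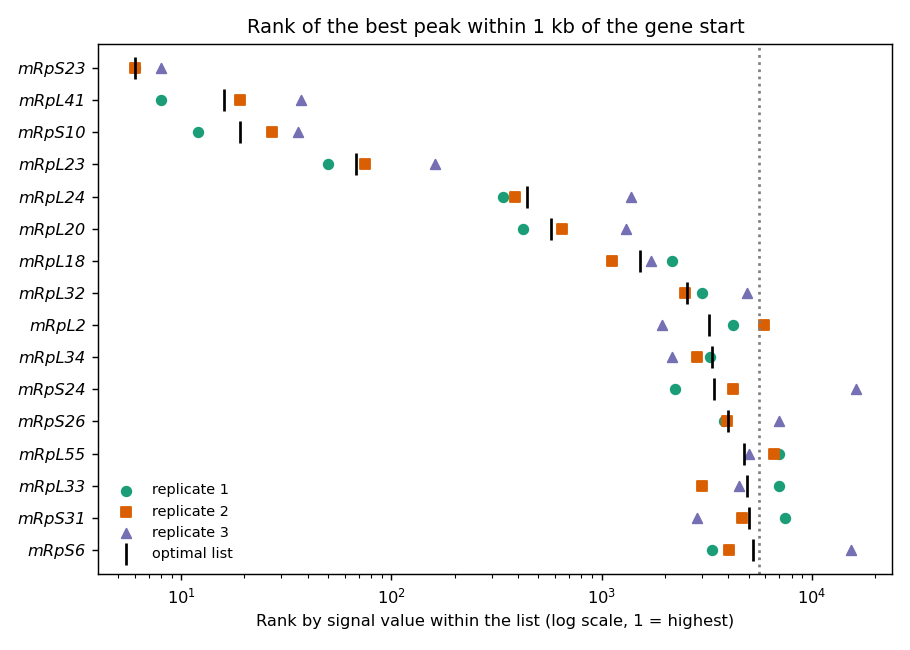
Rank by signal value, on a log scale with 1 the highest, of the best peak within 1 kb of each of the 16 mitochondrial ribosomal protein genes with an optimal summit, in replicates 1, 2 and 3 (circles, squares and triangles) and in the optimal list (bars). The dotted line is the length of the optimal list, 5623; the first 4 genes stay at or left of rank 161 in every replicate, and mRpS24 and mRpS6 lie far to the right of the line in replicate 3.

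The remaining 6 genes held optimal ranks from 3427 to 5267, and none of their peaks was found in all 3 replicates. A peak was counted as found when its summit lay inside 1 of the replicate's 5623 highest-ranked peaks. mRpS24 ranked 3427 at the promoter it shares with Apc2, a regulator of Wnt signalling, and its best peaks ranked 2238, 4193 and 16273 in the replicates. mRpS26 ranked 4001 at the promoter shared with CG13698, and its best peaks ranked 3825, 3943 and 6987 in the replicates. mRpS6, the counterpart of bacterial S6, ranked 5267, and 3332, 4027 and 15302, with its summit 162 bp upstream and 286 bp from Cip4, a regulator of membrane curvature and actin. These 3 peaks were found in replicates 1 and 2 and not in replicate 3. The ranks given for replicate 3 belong to best peaks placed elsewhere. Their summits lay 506 bp upstream of mRpS24, 959 bp upstream of mRpS26 and 525 bp upstream of mRpS6. In the optimal list these distances were 288, 264 and 162 bp.

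The peaks of the other 3 were found in replicate 3, and that of mRpL33 also in replicate 2. mRpL33, the counterpart of bacterial L33, ranked 4935, and 6986, 2999 and 4521, with its optimal summit 529 bp upstream, inside norpA, the phospholipase C of fly vision. Its best peaks in the replicates had summits 626, 525 and 388 bp upstream. mRpS31 ranked 5031, and 7488, 4638 and 2828, with its optimal summit 501 bp upstream, inside hzg. Its best peaks in the replicates had summits 365, 282 and 502 bp upstream. mRpL55, a large subunit protein of animal mitochondria, ranked 4752, and 6997, 6580 and 5008, with its summit 715 bp downstream of its TSS and 80 bp from that of cdi, which encodes a protein kinase. The summit of mRpL55 was thus the farthest of the 16, past the end of the gene itself, and its divergent partner ATPsynD, a subunit of the ATP synthase, starts 810 bp from it.

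Of the 16 optimal peaks, 9 were found in all 3 replicates, 5 in 2 and 2 in 1, and each replicate held 13 of them. Matching shares over the whole optimal list are not given here. These counts therefore do not tell whether the 16 peaks differ from other optimal peaks in this respect. The median optimal rank was 2895.5 for the 16 genes and 2134.5 for the 2252 genes with a summit. In the replicates the median rank was 2436.3 ± 359.2 for the mitochondrial ribosomal protein genes and 2183.7 ± 175.0 for all genes (SD, n = 3), so the ranges of the medians, 2044.5 to 2750.0 and 2051.0 to 2382.0, overlapped. All 16 genes had the same rank in the optimal and the pooled list. The authors' -log10 q-values were 3.97 for the 12 best-ranked of the 16 and between 3.18 and 3.53 for the other 4.

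The summits stood beside the start sites of these genes and seldom on them. Of the 16, 14 lay upstream of the own TSS (87.5%), against 76.4% of all genes with a summit and 80.5% of all divergent genes. Their absolute distance ran from 84 to 715 bp with a median of 252 bp, against 199.5 bp for all genes. In each replicate the median was taken over other genes, those with a summit in its list cut to the optimal list's length. These were 18, 16 and 16 mitochondrial ribosomal protein genes in replicates 1, 2 and 3. Their median was 180.0 bp ± 6.87, against 198.3 bp ± 24.4 for all genes (SD, n = 3). It was shorter in replicates 1 and 2 and slightly longer in replicate 3 (174.0 bp, against 171.0 bp). Because the gene sets differ, these medians do not tell how far summits lay from the 16 genes in the replicates. For the divergent mitochondrial ribosomal protein genes the optimal median was 264 bp, against 158 bp for all divergent genes. The replicates, again over the divergent genes with a summit in each, gave 190.2 bp ± 14.1 and 161.7 bp ± 5.03 (SD, n = 3). The former was longer in each replicate. A summit within 100 bp of the own TSS was found for 1 of the 16, mRpL23 (6.25%), against 25.8% of all genes with a summit. The replicate means were 6.02% ± 0.398 for the mitochondrial ribosomal protein genes and 26.5% ± 8.48 for all genes (SD, n = 3), and the values lay apart in each replicate. Of the 15 summits of genes with a divergent partner, 9 lay between the pair of start sites. Outside every protein-coding gene body lay 10 of the 16, and the rest fell inside mRpL23 itself, Taz, FoxK, norpA, hzg and cdi.

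**Figure D3:**
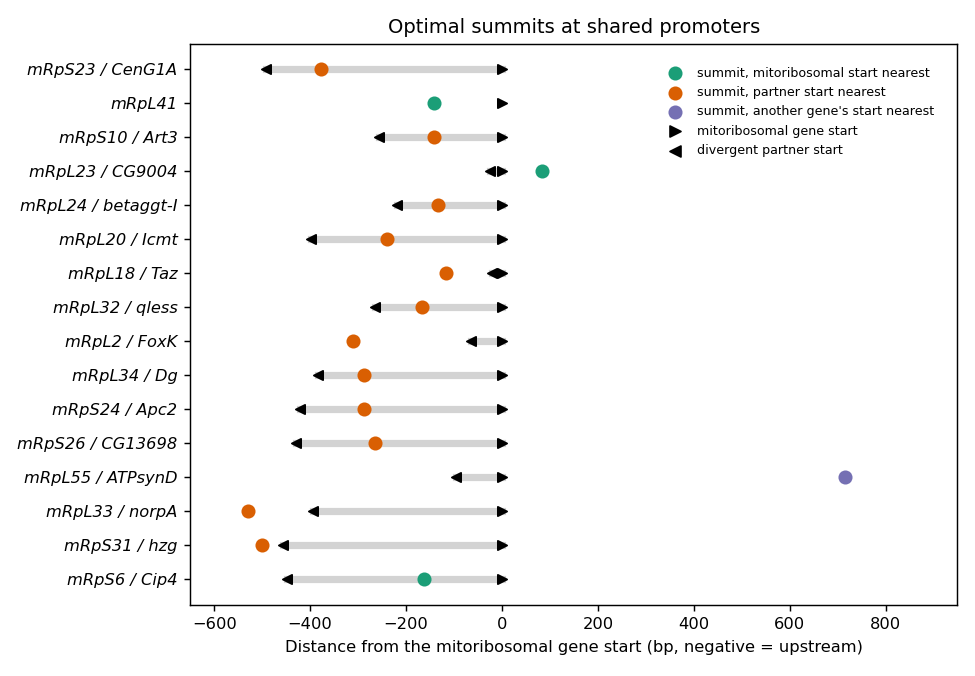
Position of the optimal summit (circle) along the distance from the TSS of the mitochondrial ribosomal protein gene in bp, negative upstream, for the 16 genes in order of rank. Right-pointing triangles mark the gene's own start, left-pointing triangles the divergent partner's start, and grey bars the gap; 12 circles are coloured for the partner's start being nearest, 3 for the own start (mRpL41, mRpL23 and mRpS6) and 1 for another gene (mRpL55).

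The other 57 genes had no optimal summit within 1 kb. Of these, 36 had no peak within 1 kb in any list, which is 49.3% of the 73, against 43.7% of all genes. A relaxed-list peak was present in 1 replicate for 11 of the 57, in 2 replicates for 8 and in all 3 for 2. Counting those with an optimal summit, 18 of the 73 had a relaxed-list peak in every replicate (24.7%), against 25.9% of all genes. The 2 without an optimal summit were mRpL39, beside the proteasome subunit gene Prosbeta2, with ranks of 3567, 12882 and 11026, and mRpL11, beside HtrA2, which encodes a mitochondrial serine protease, with ranks of 5624, 9489 and 17948. In the pooled list these ranked 5870 and 7222, below the length of the optimal list.

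Genes with no peak in any list included mRpL10, mRpL12, mRpL14, mRpL15, mRpL16, mRpL21, mRpL27, mRpL28, mRpL3, mRpL36, mRpL38 and mRpL40. mRpL10 and mRpL12 are counterparts of the bacterial stalk proteins that bring translation factors to the ribosome, and mRpL3 and mRpL16 of proteins near the bacterial peptidyl transferase centre. Of the 38 divergent genes without an optimal summit, 23 had no peak in any list. The matching share of all divergent genes is not given here, so this count is only descriptive. One of these 23 genes is mRpL16, which starts 306 bp from trr, the gene of a histone H3 lysine 4 methyltransferase. mRpS16, which shares a promoter with cg, the gene of the Polycomb-associated DNA-binding protein Combgap, had a peak in replicate 3 only, at rank 4129.

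The E-box CAGCTG was common near the start sites of these genes, both in those with an E(z)-GFP summit within 1 kb and in those without. It was searched on both strands, which are alike for this palindrome, from 250 bases upstream to 50 bases downstream of each gene's 5′ end. It was present in 40 of 73 windows (54.8%), against 17.7% of all protein-coding genes and 25.1% of divergent genes. The median of its centre was 4.5 bp downstream of the start over 45 matches. In the stretch from 10 bp upstream to 30 bp downstream, which was chosen after the positions were seen, it was present for 26 genes (35.6%), against 4.78% of all genes and 7.65% of divergent genes. Genes with an optimal summit had the motif in 10 of 16 windows (62.5%), those with only relaxed-list peaks in 10 of 21 (47.6%) and those with no peak in 20 of 36 (55.6%).

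**Figure D4:**
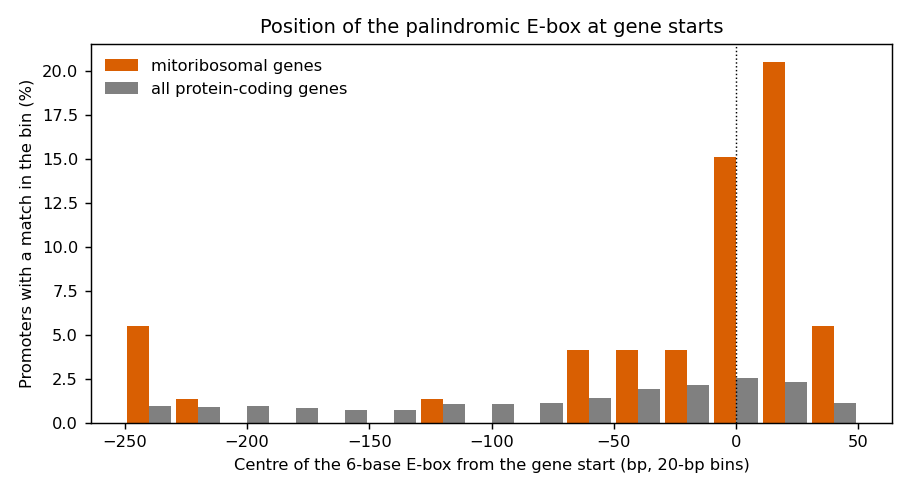
Percentage of promoter windows with a CAGCTG match whose centre falls in each 20-bp bin, by distance from the gene's 5′ end in bp, for the 73 mitochondrial ribosomal protein genes (orange) and all 13945 protein-coding genes (grey). The orange bars are tallest in the bins around the start, where the grey bars stay below 3%.

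The motif and its 12 flanking bases on each side are shown for 5 genes with an optimal summit and 4 with no peak in any list, so that the starts of genes with and without a summit within 1 kb can be read side by side. Of the 5 optimal peaks, only that of mRpS6 covers its gene's start, and the other 4 lie beside it. They too come from RefSeq's genome release 6 (dm6), along the strand of the gene, and capitals mark CAGCTG. The 5 with a summit are mRpL2 (chr3L:11120845-11120874, plus strand), mRpL24 (chr2L:4945324-4945353, minus strand), mRpL33 (chrX:4322207-4322236, minus strand), mRpS24 (chr3R:24163508-24163537, minus strand) and mRpS6 (chr3L:4364552-4364581, plus strand). The 4 with no peak are mRpL28 (chr2L:4973979-4974008, plus strand), mRpL40 (chr3R:11407929-11407958, plus strand), mRpL46 (chr3L:1777425-1777454, plus strand) and mRpS34 (chr3L:16348064-16348093, plus strand).
mRpL2: aacgccgcgtaaCAGCTGttttcagccgca
mRpL24: ttcagttctcaaCAGCTGattgcaagccgc
mRpL33: gataggcgcagtCAGCTGttcttcgttcct
mRpS24: cgtcacgtcaatCAGCTGttgctggacgca
mRpS6: ctttccttgcatCAGCTGttaacactatca
mRpL28: ttcacatacgaaCAGCTGttttttccaaac
mRpL40: cagcaacaaaaaCAGCTGttcgtacattac
mRpL46: tgtgccgcaaatCAGCTGttccggctctgg
mRpS34: agccagccggcaCAGCTGttcgaccttccc

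The other motifs were counted in the same windows on both strands. TATCGATA, the DNA replication-related element bound by the transcription factor Dref, was present for 15 of 73 genes (20.5%), against 9.36% of all genes and 17.4% of divergent genes. ATCGAT, which is contained in it, was present for 27 (37.0%), against 23.3% of all genes and 36.3% of divergent genes. The motifs known from Polycomb response elements were not more frequent. GCCAT, the core motif of Pho, was present for 34.2%, against 41.2% of all genes and 40.2% of divergent genes. GAGAG, the motif of the GAGA factor, was present for 16.4%, against 29.7% and 23.1%. GTGTGT, the motif of Combgap, was present for 12.3%, against 15.7% and 14.4%. The E-box CACGTG was present for 5 genes (6.85%), against 4.2% of all genes.

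Around the 16 optimal summits, in windows of 250 bp on each side, GAGAG was present for 5 (31.2%), against 59.5% of all 5623 optimal summits. GCCAT was present for 62.5%, against 59.6%, and GTGTGT for 31.2%, against 37.6%. TATCGATA was present for 4 of the 16 (25.0%), at mRpS23, mRpL20, mRpL32 and mRpL55, against 2.49% of all optimal summits, and CAGCTG for 43.8%, against 22.7%. All optimal summits include many far from any TSS, so these shares also differ in how close the windows are to promoters. With 16 windows, 1 summit moves a share by 6.25 percentage points.

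Other gene lists differed in the share with a summit, beside 21.9% of the mitochondrial ribosomal protein genes. Some of them, though not all, also differed in where the summits lay. The 93 cytosolic ribosomal protein genes had a summit for 47 (50.5%, and 54.9% ± 10.3 in the replicates, SD, n = 3), led by RpS19b at rank 102, RpS27 at 278, RpS10b at 638 and RpL24 at 666. A divergent partner was annotated for 39.8% of them. A summit within 100 bp of the own TSS was found for 1 of the 16 genes of the mitochondrial ribosome, as above, and for 44 of the 47 of the cytosolic ribosome (93.6%, and 83.9% ± 7.29 in the replicates, SD, n = 3). The median distance was 252 bp for the mitochondrial and 24.0 bp for the cytosolic ribosomal protein genes. CAGCTG was present in 54.8% of the windows of the mitochondrial and 9.68% of the windows of the cytosolic ribosomal protein genes.

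Among other genes of mitochondrial function, the respiratory chain list of 87 genes had a summit for 12 (13.8%, and 12.3% ± 2.66 in the replicates), led by ND-ASHI at rank 255, ND-MWFE at 1320, ND-75 at 2096 and ATPsynE at 2234. The summits of these 12 genes lay a median of 255 bp from the own TSS, and 1 lay within 100 bp (8.33%). These values were close to the 252 bp and 6.25% of the mitochondrial ribosomal protein genes. The replicate means for the respiratory chain were 319.2 bp ± 142.6 and 13.9% ± 12.7. The 26 other genes of mitochondrial translation had 1, ArgRS-m at rank 3215, a mitochondrial arginyl-tRNA synthetase (6.4% ± 5.86 in the replicates). The 18 genes of mitochondrial DNA and RNA had 6 (33.3%, and 33.3% ± 0.0 in the replicates), led by PNPase, a mitochondrial RNA-degrading enzyme, at rank 4, SLIRP2 at 109, SLIRP1 at 1516 and mtSSB at 1967. The 18 import genes had 2, Hsc70-5 at rank 536 and Tom7 at 2360. CAGCTG was present in 54.8% of the windows of the mitochondrial ribosomal protein genes and in 14 of the 26 windows of the other mitochondrial translation genes (53.8%), of which 1 had a summit. In the respiratory chain list it was present in 24.1%. The lists are short, and no difference between them was tested.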

How the data were processed

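The labels put all 3 biological replicates of the E(z)-GFP precipitation in 1 group. The authors deposited, on dm6, 30000 relaxed peaks per replicate, 30000 from the pooled replicates and an optimal list of 5623, which per the text the submitters deposited beside the samples was made from the others by a threshold on the irreproducible discovery rate. Which peak caller and aligner were used is not given in the sources used here. For the signal values that the authors deposited no scaling is stated, so they served only for ranks within a list. The authors deposited −log10 q-values too, which were only described. The deposited starts, ends and summit offsets placed the summits, at column 2 plus column 10, given 1-based. Depth per sample is unknown, so no interval was derived from it. The dm3 lists were not used here.

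Genes and 19607 TSSs of protein-coding transcripts came from Ensembl release 115, and DNA sequence was read from RefSeq's genome release 6. No dm6 peak ended beyond a reference arm. A gene's rank in a list was that of its best peak with a summit within 1 kb of a TSS, taken in a replicate from its full relaxed list. Shares of genes in replicates used the 5623 highest-ranked peaks unless called relaxed. Medians over genes in replicates used the same 5623 peaks. With 1 group there was no comparison of conditions and no test was run: counts and medians are set beside those of all protein-coding genes, with the SD over replicates. All genes with an optimal summit are named, the 10 of highest rank with their values in every list. Of the rest, the 8 of lowest mean rank with a relaxed-list peak in every replicate were to be named (2 existed), 12 with no peak in alphabetical order, and up to 4 per comparison list. mRpS2, mRpS16, mRpS22, mRpL4 and the printed sequences were chosen after their values were seen. The genes and lists were chosen with earlier results of these data known. Of 41 symbols named one by one for the comparison lists, 5 had no match. The counting of summits, pairs and offsets was checked on simulated data. Python 3.11.15, pandas 2.3.3, numpy 2.4.6 and matplotlib 3.10.9 were used. Alternatives were other distances, the upper part of the list, other gene and summit definitions, and each replicate left out.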

Additional observations from a re-analysis of the deposited data

How the results depend on the processing

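No paired analysis was possible because the labels give 1 group. The count of 16 genes with an optimal summit within 1 kb became 8 (11.0%, against 10.4% of all genes) within 250 bp, 8 (11.0%, against 9.91%) for the 2811 optimal peaks of higher signal and 3 (4.11%, against 12.9%) when each summit was given only to the gene of its nearest TSS. Requiring the peak in both other replicates left 10 without replicate 1 (13.7%, against 11.7% of all genes), 10 without replicate 2 (13.7%, against 11.0%) and 12 without replicate 3 (16.4%, against 12%). Within 5 kb the count was 21 (28.8%), below the 32.0% of all genes. It stayed between 13 and 17 under the other planned settings and was 15 with summits nearest to the gene or its partner only, a setting chosen after seeing the data. The 53 genes with a divergent partner became 25 (34.2%, against 14.2%) for partners within 250 bp. Of these 25, 5 had a summit in place of 15, against 17.5% of all genes with such a partner. That share of the 25 was not above the 21.9% of all 73 genes, so the split by promoter layout was not seen at this limit. For partners within 1000 bp they became 58 (79.5%, against 36.2%), 16 of them with a summit, against 19.5% of all such genes. The count with a summit ran from 9 to 11 with a replicate left out, and no share over all divergent genes is given beside it. The median distance of 252 bp was 167 bp for summits within 500 bp and 154.5 to 164.5 bp with a replicate left out, and the median rank of 2895.5 was 1524 within 500 bp and 509.5 to 1050 with a replicate left out. Peaks found in all 3 replicates numbered 13 in place of 9 with longer lists. A stricter setting keeps fewer summits by construction; other causes were not tested.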

Other observations

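For 2 genes of the mitochondrial ribosome, replicates 1 and 2 each had a peak among their 5623 highest and the pooled list had none. mRpS22 ranked 2579 in replicate 1 and 2543 in replicate 2, with summits 224 and 197 bp upstream, and mRpL4 ranked 4446 and 4921, with summits 183 and 178 bp upstream. Neither had a peak within 1 kb in replicate 3 or in the pooled list. They were 2 of the 14 genes of the mitochondrial ribosome with a summit of the 5623 highest peaks in both of these replicates, and of all 1844 genes with such summits 77 had no pooled peak within 1 kb. Of the 11 genes without an optimal summit and with a relaxed-list peak in 1 replicate, 8 had it in replicate 3, 3 in replicate 1 and 0 in replicate 2. Over all genes, 1332 had such a peak in replicate 3 only, 577 in replicate 1 only and 683 in replicate 2 only.

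By chromosome arm, an optimal summit was found for 6 of 17 genes of the mitochondrial ribosome on 3L, 3 of 12 on 2R, 4 of 21 on 3R, 2 of 12 on 2L and 1 of 11 on X. No gene of the mitochondrial ribosome lies on chromosome 4. Over all protein-coding genes the share with a summit was between 15.1% and 17.1% on these 5 arms.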
